A study of Mus musculus with 6 samples.

Results

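The genes described here are 9 mouse genes: the tryptase genes Tpsab1, Tpsb2 and Tpsg1, which lie side by side on chromosome 17, and the mast cell genes Cpa3, Mcpt4, Cma1, Fcer1a, Ms4a2 and Hdc. All 9 were found by symbol among the 39179 gene rows of the deposited count files. They were chosen by their measured values, the fold change of Tpsab1 between the AXL KO and WT libraries set beside the counts of the other mast cell genes, so the members' own values between the groups are given as a description without a test. The libraries came from mammary tumour grafts of the MMTV-Neu model, in which a mouse mammary tumour virus promoter drives the Neu (ErbB2) oncogene in mammary epithelium. Cells that were AXL-/- (3 libraries, labelled AXL KO) or AXL+/+ (3 libraries, labelled WT) were grafted into FVB mice, and total RNA of the whole graft was sequenced. Host cells such as mast cells can enter a graft, and the labels give no knockout of Axl in the host. The labels do not give the age or sex of the mice, the tumour line of each group or the part of Axl that was deleted. Nothing in them says that replicates are separate mice or cultures, and p-values therefore describe variation among these libraries, part or all of which may be technical.

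Mast cells are tissue-resident leukocytes that store proteases, histamine and heparin in granules and release them when an allergen cross-links IgE on their high-affinity receptor. The granule proteases fall into tryptases, chymases and carboxypeptidase A3, and mouse mast cells of connective tissue carry tryptases together with Mcpt4, Cma1 and Cpa3. In tumours they are found mainly in stroma and around vessels. In whole-graft RNA, fewer mast cells and less RNA per mast cell cannot be told apart. Nor does such RNA show which cells a read came from, and the cell type that gave the Tpsab1 reads was not tested.

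The libraries held 26541009 to 32491807 counts in genes, and 14850 genes passed the filter on low counts. Axl itself had 1360, 2396 and 1767 counts in the libraries labelled AXL KO, against 1906, 1761 and 1507 in those labelled WT, with a log2 fold change of AXL KO over WT of -0.01 ± 0.16 (SE, edgeR adjusted p = 0.978). The level of Axl therefore did not check the labels, and every direction given here is between the libraries labelled AXL KO and the libraries labelled WT. By edgeR's quasi-likelihood test with Benjamini-Hochberg adjustment, at a threshold of 0.05, AXL KO libraries were higher than WT for 19.1% of the tested genes and lower for 18.3%. Together these made 37.4% of the tested genes.

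Tpsab1 and Tpsb2 are close relatives, and their sequences are shown here because the assignment of reads to either gene bears on the result. Tpsab1 (ENSMUSG00000024173, GRCm38 chromosome 17, 25343245 to 25345562, minus strand) encodes the tryptase also called mast cell protease 7. Its neighbour Tpsb2 (ENSMUSG00000033825, chromosome 17, 25366305 to 25369098, plus strand) encodes the tryptase also called mast cell protease 6. Their starts lie 20.7 kb apart. The aligned coding sequences were identical at 621 of 818 bases (75.9%), and the longest run of identical letters was 39 bases. In the 80-base coding stretch with the fewest differences, 4 letters differed, and capitals mark them.
Tpsab1, chr17:25343465-25343544, minus strand: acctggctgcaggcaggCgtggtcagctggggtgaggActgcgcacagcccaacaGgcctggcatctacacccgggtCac
Tpsb2, chr17:25367721-25367800, plus strand: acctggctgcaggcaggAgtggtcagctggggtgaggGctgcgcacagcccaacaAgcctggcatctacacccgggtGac
In the 80-base stretch with the most differences, 36 letters differed, again in capitals.
Tpsab1, chr17:25344836-25344915, minus strand: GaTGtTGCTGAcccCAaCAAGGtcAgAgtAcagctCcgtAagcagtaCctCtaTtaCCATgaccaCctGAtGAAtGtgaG
Tpsb2, chr17:25367047-25367126, plus strand: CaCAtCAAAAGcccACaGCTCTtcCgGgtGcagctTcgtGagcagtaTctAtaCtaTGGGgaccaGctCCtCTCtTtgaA
The median over 421 such stretches was 21 differences. No window of 50, 75 or 100 bases in the GENCODE M21 transcripts of Tpsab1, Tpsb2 or Tpsg1 occurred unchanged in a transcript of another gene. These sequences are of the reference genome, and the FVB sequence was not analysed here. RefSeq lists Tpsab1 on this reference, which is of the strain C57BL/6J, as a transcribed pseudogene, whereas GENCODE and the deposited table list it as protein coding.

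Tpsab1 was almost missing from the AXL KO libraries. It had 6, 4 and 3 counts in AXL KO replicates 1, 2 and 3, against 553, 217 and 495 counts in WT replicates 1, 2 and 3. Every AXL KO library lay below every WT library by a wide margin, and the WT libraries themselves spread 2.82-fold. Groups that do not overlap in this direction were found in 25.2% of all tested genes. The mean was 0.145 ± 0.0599 CPM in the AXL KO libraries and 14.9 ± 6.87 CPM in the WT libraries (CPM are counts scaled to library size; SD, n = 3 each). The log2 fold change of AXL KO over WT was -6.66 ± 0.53 (SE), or 101-fold lower, the lowest value among the 14850 tested genes. In the authors' deposited table the log2 fold change, turned to the same direction, was -5.55. That value came from DESeq2 1.4.5 and not from edgeR, so the 2 values are not the same estimate.

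**Figure D1:**
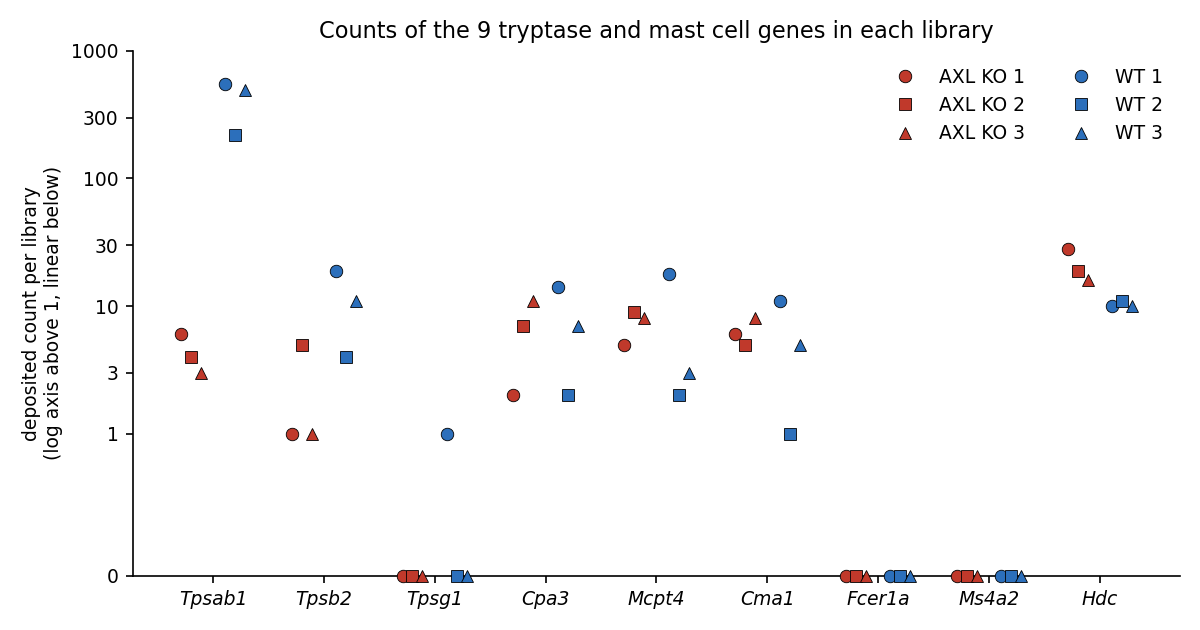
Deposited count of each gene (x axis) in each library (y axis, logarithmic above 1 and linear below), AXL KO in red left of WT in blue, with 1 point per library. Tpsab1 sits at 3 to 6 counts in the AXL KO libraries and at 217 to 553 in the WT libraries, while Cpa3, Mcpt4 and Cma1 overlap between the groups.

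Tpsb2, the second tryptase, was low throughout. It had 1, 5 and 1 counts in the AXL KO libraries, against 19, 4 and 11 in the WT libraries. AXL KO replicate 2 lay above WT replicate 2, so the groups overlapped. The ratio of AXL KO over WT from the summed counts, 7 against 34, was 0.194, with an exact 95% interval from 0.0727 to 0.445 that covers counting error only. Without AXL KO replicate 2 the log2 ratio was -3.54, in place of -2.36 with all libraries, and without WT replicate 1 it was -1.73. Tpsg1, which encodes the membrane-anchored gamma tryptase (chromosome 17, 25369273 to 25374442), had 0 counts in all AXL KO libraries and 1 count in the WT libraries, and no ratio was formed. In the annotation it overlaps Cacna1h, on the opposite strand, by 158 bases. Of the summed tryptase counts, Tpsab1 supplied 13 in the AXL KO libraries and 1265 in the WT libraries.

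The other granule proteases did not follow Tpsab1. Cpa3, the carboxypeptidase that trims peptides after chymase cleavage (chromosome 3, 20215620 to 20242181), had 2, 7 and 11 counts in the AXL KO libraries, against 14, 2 and 7 in the WT libraries. Mcpt4, a chymase with chymotrypsin-like cleavage (chromosome 14, 56059629 to 56062313), had 5, 9 and 8 counts in the AXL KO libraries, against 18, 2 and 3 in the WT libraries. Cma1, also called mast cell protease 5 (chromosome 14, 55941451 to 55944675), had 6, 5 and 8 counts in the AXL KO libraries, against 11, 1 and 5 in the WT libraries. For each of these genes the AXL KO libraries lay inside the range of the WT libraries, whose highest was replicate 1 and lowest replicate 2. The ratios of AXL KO over WT from summed counts were 0.821 for Cpa3 (95% interval 0.428 to 1.56), 0.903 for Mcpt4 (0.480 to 1.69) and 1.05 for Cma1 (0.519 to 2.16). Each ratio rested on WT replicate 1: without it the log2 ratio was 0.52 for Cpa3, in place of -0.28, 1.51 for Mcpt4, in place of -0.15, and 1.03 for Cma1, in place of 0.08. In the reference transcripts 5.48% of the 50-base windows of Mcpt4 and 5.38% of those of Cma1 also occur in transcripts of other genes. Those of Mcpt4 include Cma2 and Mcpt9. A few reads of Mcpt4 and Cma1 could thus match more than 1 gene, and alignments set down as non-unique or ambiguous are in no gene's count.

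Summed, Cpa3, Mcpt4 and Cma1 gave 61 counts in the AXL KO libraries and 63 in the WT libraries. Their summed level was 0.665 ± 0.214 CPM in the AXL KO libraries and 0.757 ± 0.736 CPM in the WT libraries (SD, n = 3 each), a ratio of 0.914 with a 95% interval from 0.632 to 1.32. This balance rested on WT replicate 1, which held 43 of the 63 WT counts. Without it the log2 ratio of the sum was 0.98, and without WT replicate 2 it was -0.63. Tpsab1 can also be set against its fellow proteases within a library, which needs no scaling between libraries. Tpsab1 made up 30%, 13.3% and 9.68% of the counts of Tpsab1, Tpsb2, Cpa3, Mcpt4 and Cma1 in AXL KO replicates 1, 2 and 3, and 89.9%, 96.0% and 95.01% in WT replicates 1, 2 and 3. The Wilson 95% intervals, which cover counting error only, reached from 3.35% to 51.9% over the AXL KO libraries and from 87.3% to 97.9% over the WT libraries. The shares are a description of the values that chose the genes and carry no test. They are shares of counts and not of molecules, since the genes differ in length. Tpsb2 made up 7 of the 20 counts of Tpsab1 and Tpsb2 in the AXL KO libraries (35.0%) and 34 of 1299 in the WT libraries (2.62%). By library this share was 14.3%, 55.6% and 25% in AXL KO replicates 1, 2 and 3, so the summed AXL KO value rested on replicate 2, which held 5 of the 7 counts.

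**Figure D2:**
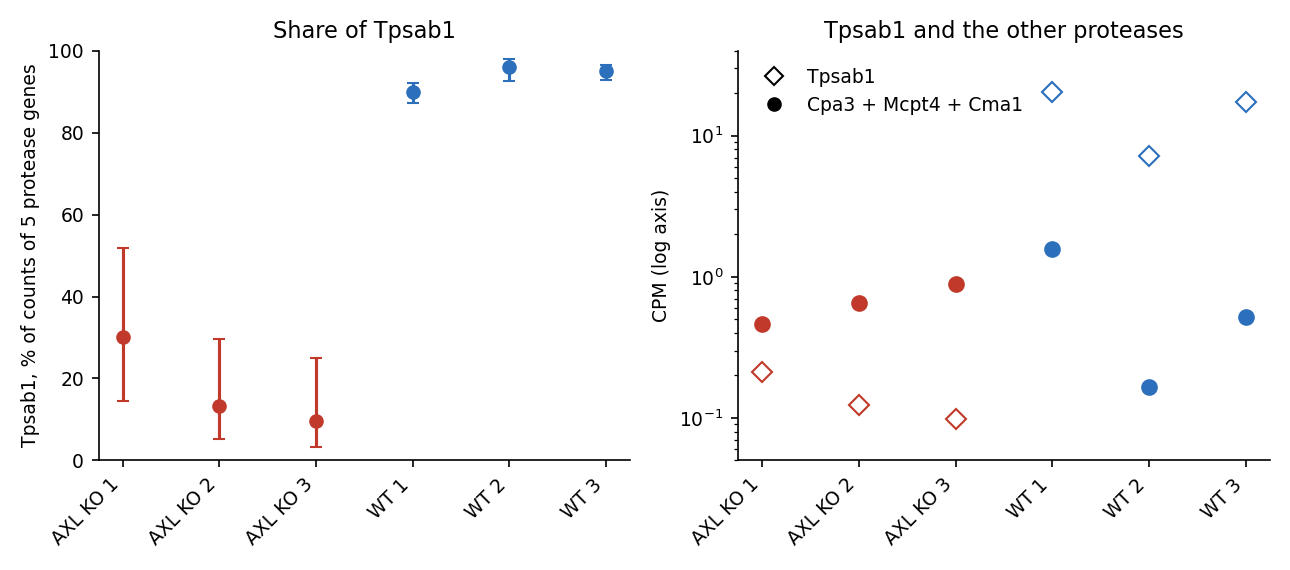
Left, Tpsab1 as a percentage of the counts of Tpsab1, Tpsb2, Cpa3, Mcpt4 and Cma1 in each library, with Wilson 95% intervals of counting error. Right, CPM on a logarithmic axis of Tpsab1 (open diamonds) and of Cpa3, Mcpt4 and Cma1 summed (filled circles). In AXL KO libraries (red) Tpsab1 lies below the summed proteases, and in WT libraries (blue) it lies above them.

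Within the WT libraries, 5 of the 7 members with any count shared an order. Tpsab1, Tpsb2, Cpa3, Mcpt4 and Cma1 were each highest in WT replicate 1, next in replicate 3 and lowest in replicate 2. The spread from lowest to highest WT library grew from 2.82-fold for Tpsab1 to 5.26-fold for Tpsb2, 7.75-fold for Cpa3, 9.97-fold for Mcpt4 and 12.2-fold for Cma1, the last of these resting on a single count in replicate 2. The same order stood in 14 of 36 tested mast cell pathway genes (38.9%) and in 22.2% of the tested genes that are not members. In the AXL KO libraries no shared order was seen, with Tpsab1 highest in replicate 1, Tpsb2 and Mcpt4 in replicate 2, and Cpa3 and Cma1 in replicate 3.

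Both genes that encode the defining chains of the IgE receptor had no counts. Fcer1a, the chain that binds IgE (chromosome 1, 173221284 to 173227214), and Ms4a2, the beta chain that amplifies its signal (chromosome 19, 11615523 to 11623719), were at 0 in all 6 libraries. A count of 0 over the 3 libraries of a group allows a level of up to 0.0329 CPM in the AXL KO group and 0.0349 CPM in the WT group, taken as 3 counts per group and covering counting error only. Of 10 mast cell markers, Fcer1a and Ms4a2 were thus at 0, and Tpsb2, Cpa3, Mcpt4 and Cma1 had low counts. The 8 markers other than Kit and Tpsab1 summed to 1.95 to 2.41 CPM in the AXL KO libraries and 1.99 to 4.05 CPM in the WT libraries. Within that sum, Hdc and Gata2, which other cells also use, had means of 0.701 and 0.755 CPM in the AXL KO libraries. In the WT libraries the means of Hdc and Gata2 were 0.361 and 1.26 CPM. Of 3 basophil markers, Prss34 was at 0 and the sum lay at 0.0618 to 0.328 CPM in the AXL KO libraries and 0.0697 to 0.147 CPM in the WT libraries.

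Hdc ran against Tpsab1. It encodes histidine decarboxylase, the enzyme that makes histamine (chromosome 2, 126593667 to 126619299), and besides mast cells it is known from basophils and other myeloid cells. Hdc had 28, 19 and 16 counts in the AXL KO libraries, against 10, 11 and 10 in the WT libraries. All AXL KO libraries lay above all WT libraries, as in 26.9% of tested genes. Its mean was 0.701 ± 0.253 CPM in the AXL KO libraries and 0.361 ± 0.0105 CPM in the WT libraries (SD, n = 3 each), and the log2 fold change was 0.94 ± 0.34 (SE). Hdc and Tpsab1 were the only members of the 9 that passed the filter on low counts. Of the rest, 5 had counts that were too low and 2 had none.

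Levels of different genes can be compared only per length of exon. In the AXL KO libraries the order from high to low was Mcpt4 at 0.216 ± 0.0491 CPM per kb, Cma1 at 0.193 ± 0.0497, Cpa3 at 0.142 ± 0.0957, Hdc at 0.110 ± 0.0396, Tpsab1 at 0.0692 ± 0.0286 and Tpsb2 at 0.0466 ± 0.0436 (SD, n = 3). Neighbours in that order overlapped in their libraries. In the WT libraries Tpsab1 led at 7.13 ± 3.28 CPM per kb, above every other member in every library. Behind it, Tpsb2 at 0.254 ± 0.178, Mcpt4 at 0.251 ± 0.301, Cma1 at 0.187 ± 0.172, Cpa3 at 0.181 ± 0.149 and Hdc at 0.0565 ± 0.00164 CPM per kb (SD, n = 3) followed in order of their means. These were not all separated, since Cma1 and Cpa3 lay below Hdc in WT replicate 2. Tpsab1 thus had a mean below those of Mcpt4, Cma1, Cpa3 and Hdc in the AXL KO libraries and above those of all other members in the WT libraries.

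The wider mast cell pathway was followed through 6 lists of 56 genes outside the 9, of which 36 were tested. In the AXL KO libraries 6 of the 36 rose and 2 fell, or 16.7% and 5.56%, against 19.1% and 18.3% of all tested genes. The median log2 fold change was 0.08, against 0.00 over all tested genes. Without AXL KO replicate 2, 7 of 37 tested pathway genes fell and 6 rose. In that setting 2828 of all 15035 tested genes fell and 2717 rose.

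In granule storage, none of 4 tested genes passed the test. Srgn, the serglycin core protein that holds proteases in granules, had 589, 733 and 535 counts in the AXL KO libraries, against 546, 546 and 474 in the WT libraries (log2 fold change 0.16 ± 0.12 (SE), edgeR adjusted p = 0.337). Ndst2, an enzyme of heparin sulfation, lay at -0.07 ± 0.14 (SE), and Ctsc, the peptidase that activates granule proteases, at 0.23 ± 0.13 (SE). Rab27a, a GTPase of granule release, lay at -0.17 ± 0.08 (SE). All of these genes are also used by other cells. The mast cell chymases Mcpt1, Mcpt2 and Mcpt9 had no counts, and Slc18a2, which loads histamine into granules, had 0 counts in the AXL KO libraries and 1 in the WT libraries (named after its values were seen).

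Of 7 genes of lipid mediator synthesis, 1 fell (14.3%, against 18.3% of all tested genes) and none rose. Ptgs2, the inducible cyclooxygenase, had 11, 46 and 16 counts in the AXL KO libraries, against 62, 50 and 68 in the WT libraries. The log2 fold change was -1.41 ± 0.42 (SE), or 2.65-fold lower, with an edgeR adjusted p of 0.0265. The call was lost without AXL KO replicate 1 (adjusted p = 0.0785), without AXL KO replicate 3 (0.0886), without WT replicate 1 (0.0561) and without WT replicate 3 (0.0851), all by edgeR. Without AXL KO replicate 2 the log2 fold change was -2.18. The leukotriene genes Ltc4s and Alox5, at -0.73 ± 0.32 and -0.65 ± 0.29 (SE), and the phospholipase gene Pla2g4a, at -0.47 ± 0.17 (SE), did not pass with all libraries. Ltc4s and Pla2g4a passed without AXL KO replicate 2 (edgeR adjusted p = 0.0308 and 0.00784).

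Among 10 genes of IgE receptor signalling 2 rose and 1 fell (20% and 10%, against 19.1% and 18.3% of all tested genes). Lat, the membrane adaptor phosphorylated after receptor engagement, had 32, 49 and 30 counts in the AXL KO libraries, against 11, 9 and 15 in the WT libraries, and rose 2.96-fold (edgeR adjusted p = 0.00432). Grap2, an adaptor that binds Lat, had 42, 48 and 46 counts in the AXL KO libraries, against 12, 24 and 15 in the WT libraries, and rose 2.52-fold (edgeR adjusted p = 0.00459). Both also serve the T cell receptor, and all 4 T cell markers rose in the same libraries, with a summed level of 7.60 to 10.3 CPM in the AXL KO libraries and 1.25 to 2.89 CPM in the WT libraries. The part of T cells in the Lat and Grap2 values was not tested. Fyn, a Src-family kinase made by many cell types, had 717, 946 and 792 counts in the AXL KO libraries, against 1189, 1381 and 1342 in the WT libraries, and fell 1.69-fold (edgeR adjusted p = 0.000258). Lyn, the kinase that starts the signal, lay at 0.20 ± 0.07 (SE, edgeR adjusted p = 0.052). Fcer1g, the signalling chain shared by several Fc receptors, was named after its values were seen and had 708, 974 and 758 counts in the AXL KO libraries, against 726, 586 and 544 in the WT libraries. It was well counted where its partners Fcer1a and Ms4a2 were at 0.

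Of 7 tested growth factors, receptors and transcription factors 2 rose (28.6%, against 19.1% of all tested genes) and none fell. Kit, the receptor that mast cells need for survival, had 33036, 37469 and 39481 counts in the AXL KO libraries, against 18339, 19855 and 20450 in the WT libraries. It rose 1.77-fold (log2 fold change 0.82 ± 0.08 (SE), edgeR adjusted p = 0.00011). At 136 CPM per kb in the AXL KO libraries and 76.6 CPM per kb in the WT libraries it stood far above any granule protease. Kit is also known from luminal progenitors of mammary epithelium. Of 4 mammary epithelium markers, 3 fell (Epcam, Krt8 and Krt18) and Erbb2 rose, where 18.3% of all tested genes fell and 19.1% rose. Their summed level was 10850 to 12953 CPM in the AXL KO libraries and 10659 to 12002 CPM in the WT libraries. The part of epithelium in the Kit values was not tested. Kitl, which encodes its ligand stem cell factor, rose 1.43-fold (edgeR adjusted p = 0.0091). Gata2, a transcription factor of mast cells that also acts in other blood cells and in endothelium, had 26, 18 and 24 counts in the AXL KO libraries, against 38, 40 and 30 in the WT libraries. Its log2 fold change of -0.74 ± 0.26 (SE) did not pass (edgeR adjusted p = 0.054), nor did that of Tal1, a blood and endothelial factor, at -0.72 ± 0.26 (SE, edgeR adjusted p = 0.0539). Tal1 passed without AXL KO replicate 2 (edgeR adjusted p = 0.0134). All 3 endothelial markers fell in the same libraries, as did 18.3% of all tested genes. Their summed level was 112 to 149 CPM in the AXL KO libraries and 182 to 212 CPM in the WT libraries. The part of endothelium in the Gata2 and Tal1 values was not tested. The growth factor genes Il3 and Il9 had no counts.

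Of 8 listed surface receptors and related genes, 2 could be tested and neither passed. The other 6 had 1 to 71 counts over all libraries and were named after their values were seen. Mrgprb2, the receptor for basic secretagogues, had 1 count in AXL KO replicate 1 and 1 in WT replicate 1. Adora3, an adenosine receptor, had 17, 11 and 17 counts in the AXL KO libraries, against 8, 10 and 8 in the WT libraries. Cd200r3, a receptor of mast cells and basophils, had 3, 2 and 10 counts in the AXL KO libraries, against 3, 3 and 1 in the WT libraries. The tested genes of this list, C5ar1 and P2rx1, are shared with other leukocytes and lay at -0.43 ± 0.23 and -0.28 ± 0.42 (SE). C5ar1 passed without AXL KO replicate 2 (edgeR adjusted p = 0.0277).

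Of 6 tested genes that respond to or clear mast cell products, 2 rose (33.3%, against 19.1% of all tested genes) and none fell. Hnmt, the methyltransferase that inactivates histamine inside cells, had 185, 174 and 169 counts in the AXL KO libraries, against 52, 26 and 14 in the WT libraries. It rose 5.38-fold (log2 fold change 2.43 ± 0.37 (SE), edgeR adjusted p = 0.00139), with all AXL KO libraries above all WT libraries. Without WT replicate 1 its log2 fold change was 3.09. Hrh2, a histamine receptor, had 18, 14 and 11 counts in the AXL KO libraries, against 4, 5 and 3 in the WT libraries, and rose 3.33-fold (edgeR adjusted p = 0.0103). Hrh2, like Ltc4s, Pla2g4a, Fyn, Lyn, Ctsc, Cysltr1, Il6ra and Tsr3, overlaps an annotated gene on the opposite strand. Whether counting used strand is not given in the sources used here. Among overlaps on the same strand, Grap2 shares 1951 bases with Gm49553 and Rab27a shares 307 bases with Gm27186. The receptor Hrh1 lay at -0.69 ± 0.28 (SE, edgeR adjusted p = 0.0801), and Cysltr1, a leukotriene receptor, lay at 0.51 ± 0.23 (SE, edgeR adjusted p = 0.115) and passed without WT replicate 1 (0.0428). F2rl1, which encodes the receptor PAR2 that tryptase can cleave, was named after its values were seen and had 127, 171 and 161 counts in the AXL KO libraries, against 160, 151 and 186 in the WT libraries, so the groups overlapped.

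**Figure D3:**
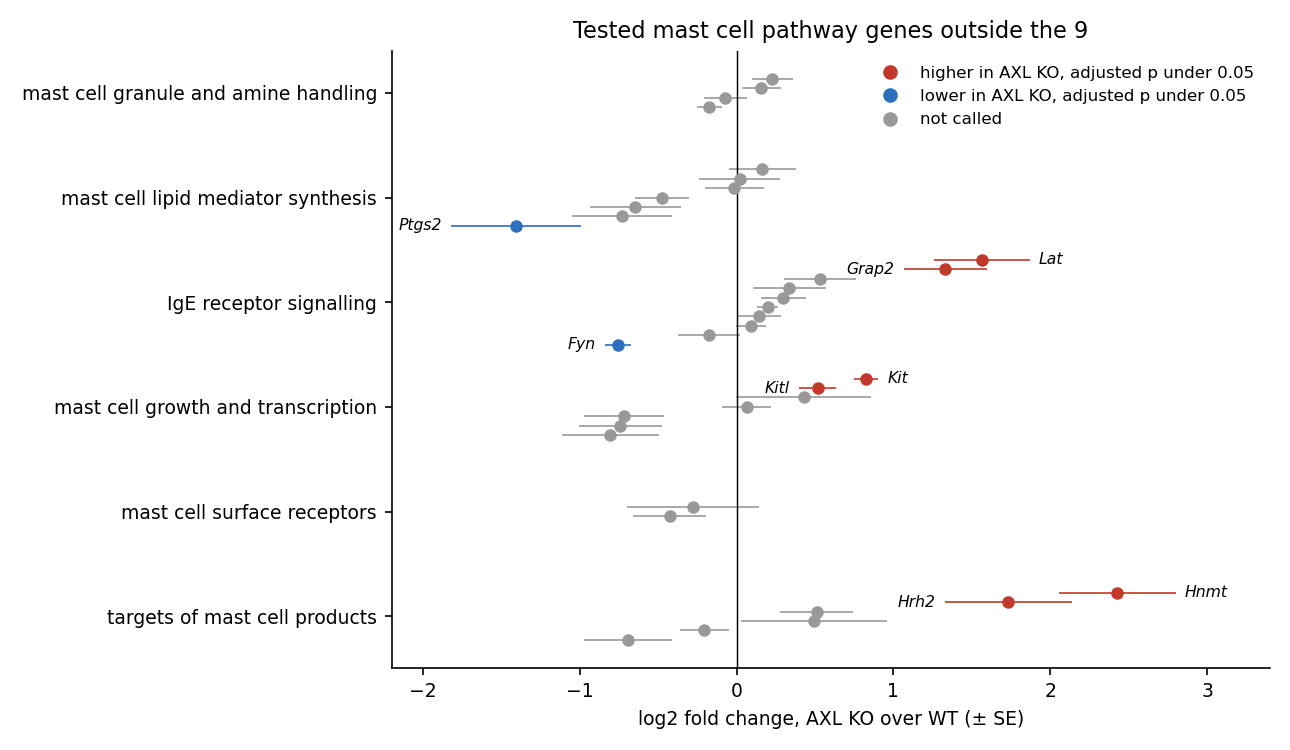
Log2 fold change of AXL KO over WT with its SE for the 36 tested mast cell pathway genes outside the 9, by list. Red and blue points passed the edgeR test at an adjusted p under 0.05, 6 higher and 2 lower, and grey points did not. Hnmt at 2.43 and Hrh2 at 1.73 are the largest changes, and the granule list holds no called gene.

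Relatives of the proteases at the same loci were looked up next. Of 10 other tryptase-like serine protease genes of chromosome 17 only Prss22 could be tested. Prss22, a serine protease known from airway epithelium, had 18, 24 and 16 counts in the AXL KO libraries, against 55, 57 and 77 in the WT libraries, and fell 3.44-fold (edgeR adjusted p = 0.00084). Of the 13 genes listed for the chymase and granzyme locus of chromosome 14, both that could be tested rose, against 19.1% of all tested genes. Gzmb, a granule protease of cytotoxic lymphocytes, had 407, 430 and 594 counts in the AXL KO libraries, against 7, 65 and 41 in the WT libraries, and rose 12.1-fold (edgeR adjusted p = 0.000501). Gzmc rose 3.63-fold (edgeR adjusted p = 0.00502). All 3 NK cell markers rose in these libraries, with a summed level of 5.96 to 8.08 CPM in the AXL KO libraries and 0.732 to 1.07 CPM in the WT libraries. The part of NK cells in the granzyme values was not tested. Without WT replicate 2 the log2 fold changes were 4.201 for Gzmb, in place of 3.59, and 2.45 for Gzmc, in place of 1.86. In the same locus the summed counts of Mcpt4 were 22 in the AXL KO libraries and 23 in the WT libraries, and those of Cma1 were 19 in the AXL KO libraries and 17 in the WT libraries, with the dependence on WT replicate 1 given above. From the basophil list, Cd69, an activation marker of many leukocytes, rose 6.49-fold (edgeR adjusted p = 0.000221), beside the T cell and NK cell marker values given above, whose part in it was not tested. Il6ra lay at 0.20 ± 0.12 (SE).

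The genes around the tryptase cluster were mostly lower in the AXL KO libraries, though far less than Tpsab1. Of 33 tested genes that start within 500 kb of Tpsab1, 21 fell and none rose (63.6%, against 18.3% of all tested genes). Their median log2 fold change was -0.39. The rest of chromosome 17, beyond 1000 kb, was also lower: 266 of 668 tested genes fell (39.8%) and 83 rose, with a median of -0.25, against 0.00 over all tested genes. The difference between the neighbourhood and the rest of the chromosome was not tested.

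Tested genes close to Tpsab1 fell on both sides. On the side of lower coordinates these included Gm5430, a pseudogene whose start lies at -18.04 kb from that of Tpsab1, and Tsr3, a factor of ribosome maturation. Gm5430 had 9, 10 and 13 counts in the AXL KO libraries, against 17, 34 and 23 in the WT libraries, and fell 2.42-fold (edgeR adjusted p = 0.0148). This call was lost without AXL KO replicate 1 (edgeR adjusted p = 0.055) and without WT replicate 2 (0.0504). Tsr3 fell 1.39-fold (edgeR adjusted p = 0.00972). On the other side, Sox8, a transcription factor of neural crest and testis, had 243, 329 and 283 counts in the AXL KO libraries, against 639, 794 and 658 in the WT libraries, and fell 2.59-fold (edgeR adjusted p = 4.68e-05). The transcript 2810468N07Rik, which overlaps Sox8 on the opposite strand by 329 bases, and Lmf1, a maturation factor of lipases, fell 1.59-fold and 1.61-fold (edgeR adjusted p = 0.000901 and 0.000401). Prss34, Prss28 and Prss29, the proteases next to Tpsab1 on the lower side, had 0, 0 and 2 counts over all 6 libraries, and Cacna1h, a calcium channel gene beside Tpsg1, had 17.

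**Figure D4:**
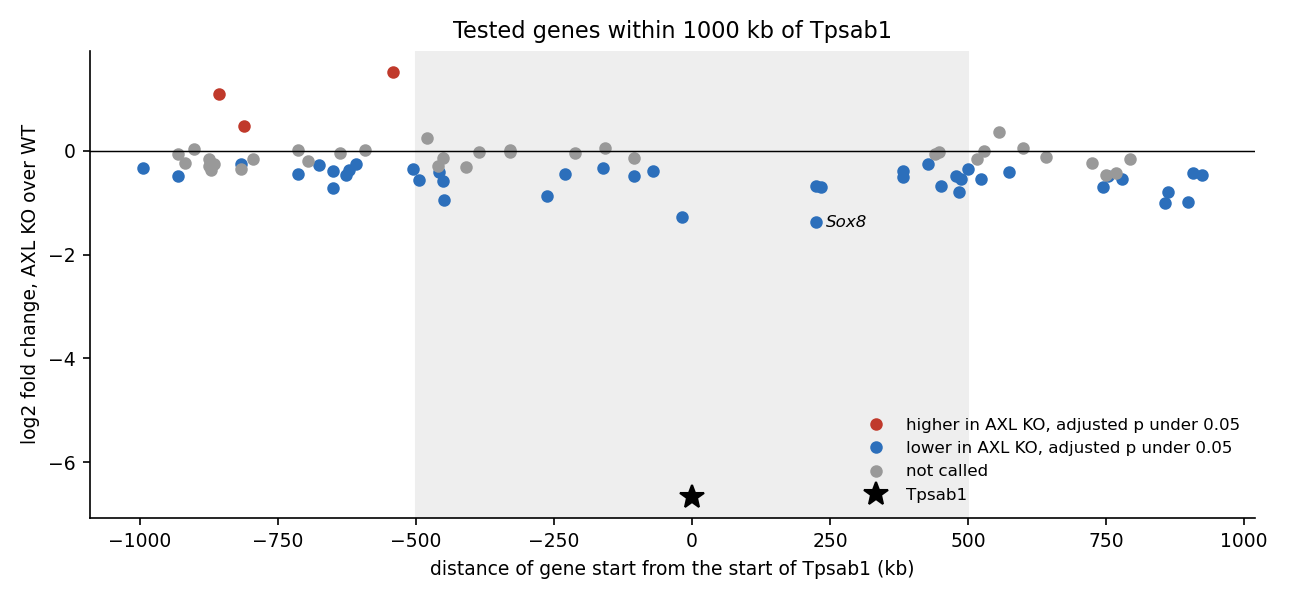
Log2 fold change of AXL KO over WT (y axis) of tested genes by the distance of their start from that of Tpsab1 (x axis, kb), with the 500 kb window shaded. Within the shading 21 of 33 genes are called lower (blue) and none higher, and Sox8 at -1.37 is the lowest of them, while Tpsab1 (star) lies at -6.66.

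The genes whose log2 CPM ran most like that of Tpsab1 over the 6 libraries were Atp6v1d, Cers2, Rpl8, Mad2l1bp and Rhoa, with Pearson correlations of 0.998 to 0.996 among 12666 protein-coding genes compared. They fell only 1.18-fold to 1.53-fold, and 657 of the compared genes had a correlation of at least 0.95, so the measure mainly follows the gap between the 2 groups, and it is given as a description with no p.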

How the data were processed

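RNA-seq of 6 tumour graft libraries, 3 AXL KO and 3 WT, was grouped by sample title. Per the submitters' processing notes, CASAVA 1.8, TopHat2 2.0.10, HTSeq 0.5.3 and DESeq2 1.4.5 were used with build GRCm38. For settings, strand and read length: not given in the sources used here. The deposited files hold raw counts per gene, with 5 rows naming no gene, which were left out (non-unique alignments made up 25.7% to 29.0% of lines, those in no gene 4.41% to 6.88% and ambiguous ones 0.717% to 1.09%). The authors' deposited table holds a signal per library, the count divided by a size factor, with log2 fold changes signed as WT over AXL KO, a score (the test statistic) and p-values.

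Genes passing filterByExpr (minimum count 10, minimum total 15) entered edgeR's quasi-likelihood test (version 4.0.16, R 4.3.3), with TMM factors, group as the only term and Benjamini-Hochberg adjustment over 14850 genes at 0.05. Each SE of a log2 fold change, also for Tpsab1 and Hdc, was worked back from that test. It is the size of the log2 fold change divided by the square root of the F statistic. CPM use TMM-scaled library sizes, and CPM per kb divide by the union of GENCODE M21 exons. Ratios of summed counts have exact conditional binomial 95% intervals, and shares have Wilson intervals (scipy 1.17.1). Coding sequences were aligned with Biopython 1.88. The edgeR step was tested on simulated data.

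The members, lists and tests were chosen with earlier results of these data known. Named genes were the 9 members, up to 4 tested genes per list with the smallest p, the 3 nearest tested genes on each side of Tpsab1, and the 5 genes most correlated with it among protein-coding genes whose mean log2 CPM reached 0. A gene that this rule names is not reported here. Alternatives were DESeq2 1.42.0 as the test, its size factors in place of TMM, all genes with a count, only genes averaging 2 or more in log2 CPM, replicate number as a block, leaving out single libraries, an adjusted p threshold of 0.01, and windows of 250 and 1000 kb.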

Additional observations from a re-analysis of the deposited data

How the results depend on the processing

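The log2 fold change of Tpsab1 stayed between -7.01 and -6.38 with a library left out, and at -6.67, -6.71, -6.66 and -6.67 with DESeq2 size factors, the DESeq2 test, no filter and the mean log2 CPM filter. The log2 ratio of the 8 other members summed, -0.06 with all libraries, ranged from -0.44 to 0.59 with a library left out. That sum joins opposite directions: Tpsb2 had 7 counts in the AXL KO libraries and 34 in the WT libraries, and Hdc had 63 and 31. It does not show that each member was unchanged. Calls over all genes, 5552, numbered 3074 at an adjusted p under 0.01 and 3733 to 5545 with a library left out. Mast cell pathway calls, 8 of 36 tested, numbered 3 of 22 with the mean log2 CPM filter and 7 to 13 with a library left out. The 13, of 37 tested, were without AXL KO replicate 2, where 5545 of all 15035 tested genes were called. Calls around Tpsab1, 21 of 33 tested genes, numbered 15 to 21 with a library left out. Within 250 kb, 8 of 11 tested genes fell (72.7%) and none rose. Within 1000 kb, 45 of 79 were called, 42 lower (53.2%) and 3 higher (3.8%). Of all tested genes 18.3% were lower and 19.1% higher. Calls in the chymase and tryptase-like lists, 3, numbered 1 with the mean log2 CPM filter, where 1 gene was left to test, and 3 with any library left out. Of 18 named called genes 16 kept the call at 0.05 under every other normalization, test, filter, block or left-out library that tested them, and Ptgs2 and Gm5430 lost it as given above. At a threshold of 0.01, Ptgs2, Gm5430 and Hrh2 (adjusted p = 0.0103) were not called. Of 15 named uncalled genes 5 were called in at least 1 alternative, Pla2g4a with the DESeq2 test too (adjusted p = 0.038). No called gene reversed.

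Replicate numbers did not pair the libraries: deviations of same-numbered libraries correlated at -0.05, -0.12 and 0.06. With a replicate block, 4831 genes were called in all, 8 in the pathway lists and 20 around Tpsab1, and Tpsab1 lay at -6.62. Depth limits Tpsb2, Cpa3, Mcpt4 and Cma1, with 36 to 45 counts each over 6 libraries, and Tpsg1, with 1.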
